A study of Homo sapiens with 8 samples.

Results

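The adrenergic core transcription factors described here are 8 genes, PHOX2A, HAND2, GATA2, GATA3, ISL1, TBX2, TFAP2B and SOX11, out of 58721 genes counted in each library. They were chosen by name, as regulators of the adrenergic state of neuroblastoma, and found through their Ensembl identifiers in GENCODE release 29. Total RNA enriched for messenger RNA was sequenced from CHLA-20 and NGP, a pair of established human neuroblastoma cell lines. CHLA-20 cells received JSK591 or the vehicle DMSO, and NGP cells received JSK591 or DMSO, each for 6 days, which gave 4 groups of 2 libraries. JSK591 is the name on the samples, and the treatment description calls the compound GSK591, an inhibitor of the arginine methyltransferase PRMT5. It was given at the IC50 dose, with no concentration stated. The medium of CHLA-20 was IMEM with added insulin, transferrin and selenite, and that of NGP was RPMI1640, so a difference between the lines is also a difference between media. No label says that replicates came from separate cultures, so the spread behind each p-value may be technical.

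Neuroblastoma is a childhood tumour of the sympathoadrenal lineage of the neural crest, which forms sympathetic neurons and the chromaffin cells of the adrenal gland. Cells in its adrenergic state depend on transcription factors that bind the enhancers of their own gene and of each other's genes, a core regulatory circuit. In development some of the same factors drive the enzymes that make noradrenaline. PHOX2A and ISL1 are homeodomain proteins, HAND2 is a basic helix-loop-helix protein, GATA2 and GATA3 are zinc finger proteins that bind the letters GATA, TBX2 is a T-box repressor, TFAP2B belongs to the AP-2 family and SOX11 to the SRY-related HMG box family.

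The regions before the start of HAND2, ISL1 and GATA3 are shown because these factors carry the treatment results. HAND2 moved in opposite directions in the lines, ISL1 fell beside a divergent RNA gene that rose, and GATA3 fell with a log2 change of -0.36 in each. The sequences are those of RefSeq on GRCh38.p14, which gave a start for 6 of the 8 genes. They are read 5′ to 3′ on the strand of the gene. Those of HAND2 and GATA3 end just before the RefSeq start, and that of ISL1 stops short of it, just before the start in GENCODE. Capitals mark the GATA motif GATAA and the homeodomain motif TAATTA on either strand.
HAND2: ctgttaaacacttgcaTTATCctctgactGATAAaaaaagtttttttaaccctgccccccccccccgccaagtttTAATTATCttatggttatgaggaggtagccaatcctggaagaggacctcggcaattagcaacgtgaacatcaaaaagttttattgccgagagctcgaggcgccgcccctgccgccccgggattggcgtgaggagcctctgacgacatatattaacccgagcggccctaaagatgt
ISL1: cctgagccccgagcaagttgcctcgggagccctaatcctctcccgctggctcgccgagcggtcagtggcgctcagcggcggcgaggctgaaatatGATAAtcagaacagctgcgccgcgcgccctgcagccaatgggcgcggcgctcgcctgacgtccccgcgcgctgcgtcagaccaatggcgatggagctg
GATA3: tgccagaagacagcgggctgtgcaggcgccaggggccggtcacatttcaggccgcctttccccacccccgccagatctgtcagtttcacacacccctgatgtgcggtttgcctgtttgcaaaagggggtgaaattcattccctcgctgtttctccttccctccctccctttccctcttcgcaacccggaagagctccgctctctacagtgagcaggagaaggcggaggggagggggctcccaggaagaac
The HAND2 sequence lies at chr4:173530230-173530479 on the minus strand, that of ISL1 at chr5:51383198-51383390 and that of GATA3 at chr10:8045083-8045332, both on the plus strand. The HAND2 region holds 3 GATAA motifs, 234, 221 and 172 bases before the start. The last of them shares bases with the TAATTA motif at 175. The ISL1 sequence shown holds 1 GATAA, 155 bases before the RefSeq start, and a second one at 30 bases falls in the stretch not shown. The GATA3 sequence holds neither motif. Over the 250 bases before the start, GATAA was in 2 of the 6 matched factors, HAND2 and ISL1, and in 20.4% of 35116 RefSeq promoters of that length. TAATTA was in HAND2 and in 4.35% of all promoters. CATCTG, the site of many basic helix-loop-helix dimers, was in 0 of the 6 and in 12.2% of all. The looser CANNTG, which contains it, was in HAND2 and ISL1 and in 61.8%, and the AP-2 motif GCCNNNGGC was in GATA2 and GATA3 and in 19.8%. The T-box motif GGTGTGA and the SOX motif ACAAAG were in 0 of the 6, against 2.76% and 13.7% of all, and the SOX motif AACAAT was in TFAP2B and in 8.98%. A match is a description of letters, not a measured binding site.

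Between 33188542 and 34914902 reads per library were assigned to genes, and the 8 factors together took 0.259% to 0.310% of them. All 8 passed the filter on low counts. Values are CPM, the counts scaled by TMM-adjusted library size, and levels are set against each other between genes as CPM per kilobase of exon. The chi-square between replicates was 2.16 to 3.36 for each degree of freedom, so their spread was above counting error in every group. A change is called where the quasi-likelihood test of edgeR gave a p under 0.05 after Benjamini-Hochberg adjustment over 19395 genes. An exact permutation test of 2 libraries against 2 cannot go below p = 0.333 and was not used.

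Per kilobase of exon, PHOX2A was the most abundant of the 8 in every group and HAND2 the second. Mean levels of PHOX2A were 245 CPM per kilobase in CHLA-20 JSK591, 316 in CHLA-20 DMSO, 372 in NGP JSK591 and 415 in NGP DMSO. These values lay above those of at least 99.5% of the protein-coding genes that passed the filter. HAND2 stood at 149, 218, 232 and 184 CPM per kilobase in the same order of groups. GATA3 had 101, 130, 137 and 176 CPM per kilobase and GATA2 had 101, 93.9, 42.1 and 44.5. In CHLA-20 JSK591 the libraries of GATA2 and GATA3 overlapped per kilobase, as did those of ISL1 and SOX11. In NGP DMSO the libraries of HAND2 and GATA3 overlapped, and those of SOX11 and GATA2. ISL1, SOX11 and TBX2 lay between 21.7 and 51.2 CPM per kilobase in all groups. TFAP2B had 39.1 and 36.5 CPM per kilobase in CHLA-20 JSK591 and DMSO, but 1.16 and 1.06 in NGP JSK591 and DMSO, where it was the least abundant of the 8.

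**Figure D1:**
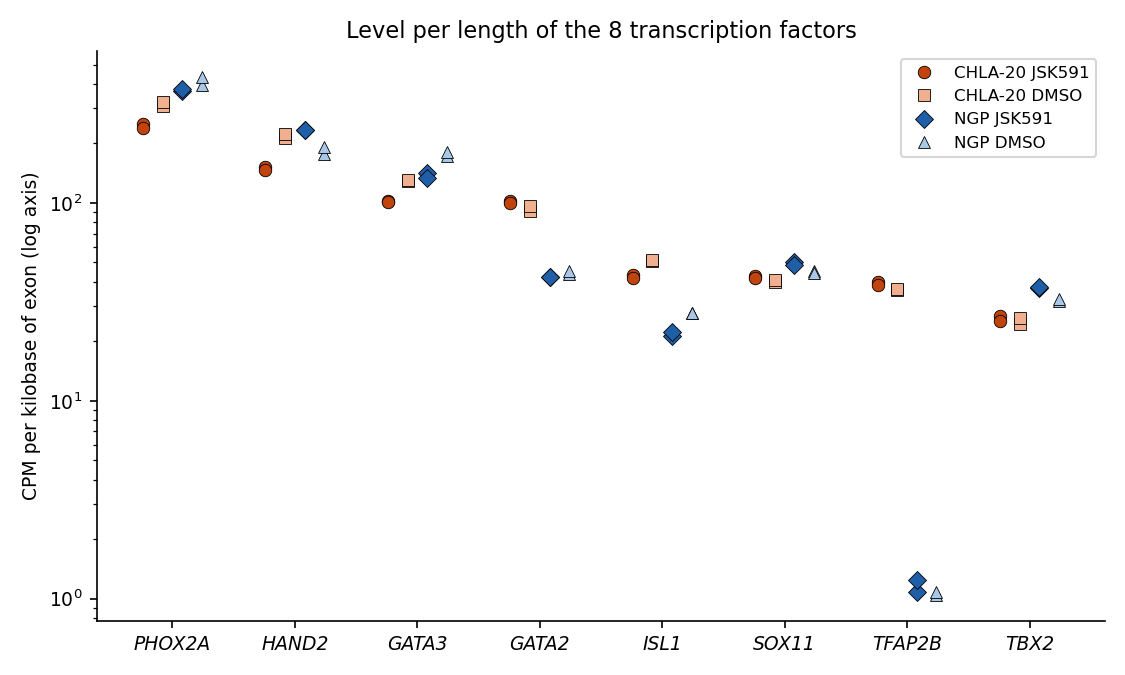
Level of each factor in CPM per kilobase of exon on a log axis, 1 point per library, with the 4 groups set apart by colour and shape. PHOX2A lies highest in every group, and TFAP2B drops to about 1 CPM per kilobase in both NGP groups (means 1.16 with JSK591 and 1.06 with DMSO).

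Added over the 8 factors, the level was 2704 and 2623 CPM in the CHLA-20 JSK591 libraries, against 3034 and 3150 CPM in the CHLA-20 DMSO libraries. In NGP the sums were 2891 and 2879 CPM with JSK591, against 2800 and 2953 CPM with DMSO. The groups did not overlap in CHLA-20, where the JSK591 sums were lower, and the JSK591 sums lay inside the DMSO range in NGP. In these bulk samples fewer cells of a type and less RNA per cell cannot be told apart.

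In CHLA-20 the comparison asks which of the factors change their level under JSK591. HAND2, PHOX2A, GATA3 and ISL1 fell, GATA2 and TFAP2B rose slightly, and TBX2 and SOX11 did not pass the test. The 4 that fell are 4 of 8, beside 22.4% of all genes tested that were lower, and the 2 that rose stand beside 16.9% higher. In both directions together 39.4% of all genes were called. The median log2 change of the 8 was -0.12, against -0.02 over all genes. Both JSK591 libraries lay on one side of both DMSO libraries for 7 of the 8, as they did for 66.6% of all genes.

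HAND2, a driver of noradrenergic differentiation (ENSG00000164107.8, chromosome 4, 173524969 to 173530229, minus strand, GRCh38), had 546 and 529 CPM in CHLA-20 JSK591, against 766 and 806 CPM in CHLA-20 DMSO. Its log2 change of -0.55 ± 0.04 (estimate ± SE) was larger in size than that of 79.7% of all genes tested (edgeR adjusted p = 2.78e-19). Of its exonic bases, 24.1% are shared with another gene, and no source says whether the counting used strand.

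PHOX2A, which activates the noradrenaline-producing enzyme gene DBH (ENSG00000165462.5, chromosome 11, 72239077 to 72245664, minus strand), had 448 and 428 CPM with JSK591, against 552 and 574 CPM with DMSO. Its log2 change was -0.36 ± 0.04 (edgeR adjusted p = 6.24e-12). At 66.5% its longest transcript has the highest GC content of the 8, and removing the trend in GC content left a change of -0.13, still called.

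GATA3, which maintains sympathetic neurons (ENSG00000107485.16, chromosome 10, 8045378 to 8075203, plus strand), had 351 and 346 CPM with JSK591, against 444 and 450 CPM with DMSO, a log2 change of -0.36 ± 0.04 (edgeR adjusted p = 2.38e-12). ISL1, a LIM homeodomain factor of early sympathetic neurons (ENSG00000016082.14, chromosome 5, 51383391 to 51394738, plus strand), had 124 and 120 CPM with JSK591, against 147 and 149 CPM with DMSO. Its log2 change was -0.27 ± 0.04 (edgeR adjusted p = 9.33e-08). In all 4 falling factors every JSK591 library lay below every DMSO library.

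The 2 increases in CHLA-20 were small. GATA2 (ENSG00000179348.11, chromosome 3, 128479427 to 128493185, minus strand) had 457 and 447 CPM with JSK591, against 407 and 430 CPM with DMSO, a log2 change of 0.11 ± 0.04 (edgeR adjusted p = 0.0108). This call was lost without CHLA-20 DMSO replicate 1 (0.07) and without CHLA-20 JSK591 replicate 1 (0.10), and the change reached 0.18 without CHLA-20 DMSO replicate 2 and 0.26 with the GC trend removed. TFAP2B (ENSG00000008196.12, chromosome 6, 50818723 to 50847613, plus strand) had 244 and 237 CPM with JSK591, against 224 and 226 CPM with DMSO, a log2 change of 0.10 ± 0.04 (edgeR adjusted p = 0.037). Its call was lost with DESeq2 (adjusted p = 0.0673), without any filter (edgeR adjusted p = 0.0806), and without CHLA-20 DMSO replicate 1 (0.09) or CHLA-20 JSK591 replicate 1 (0.08) or 2 (0.12).

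TBX2 (ENSG00000121068.13, chromosome 17, 61399896 to 61409466, plus strand) had 162 and 152 CPM with JSK591, against 148 and 158 CPM with DMSO, so its groups overlapped. The log2 change was 0.04 ± 0.04 (edgeR adjusted p = 0.512), and with the GC trend removed it was 0.21 and called. SOX11 (ENSG00000176887.6, chromosome 2, 5692667 to 5701385, plus strand) had 372 and 365 CPM with JSK591, against 346 and 357 CPM with DMSO. Its groups did not overlap, but its log2 change of 0.07 ± 0.04 did not pass (edgeR adjusted p = 0.146). It passed under 6 of 17 other settings, with values of 0.08 to 0.11.

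**Figure D2:**
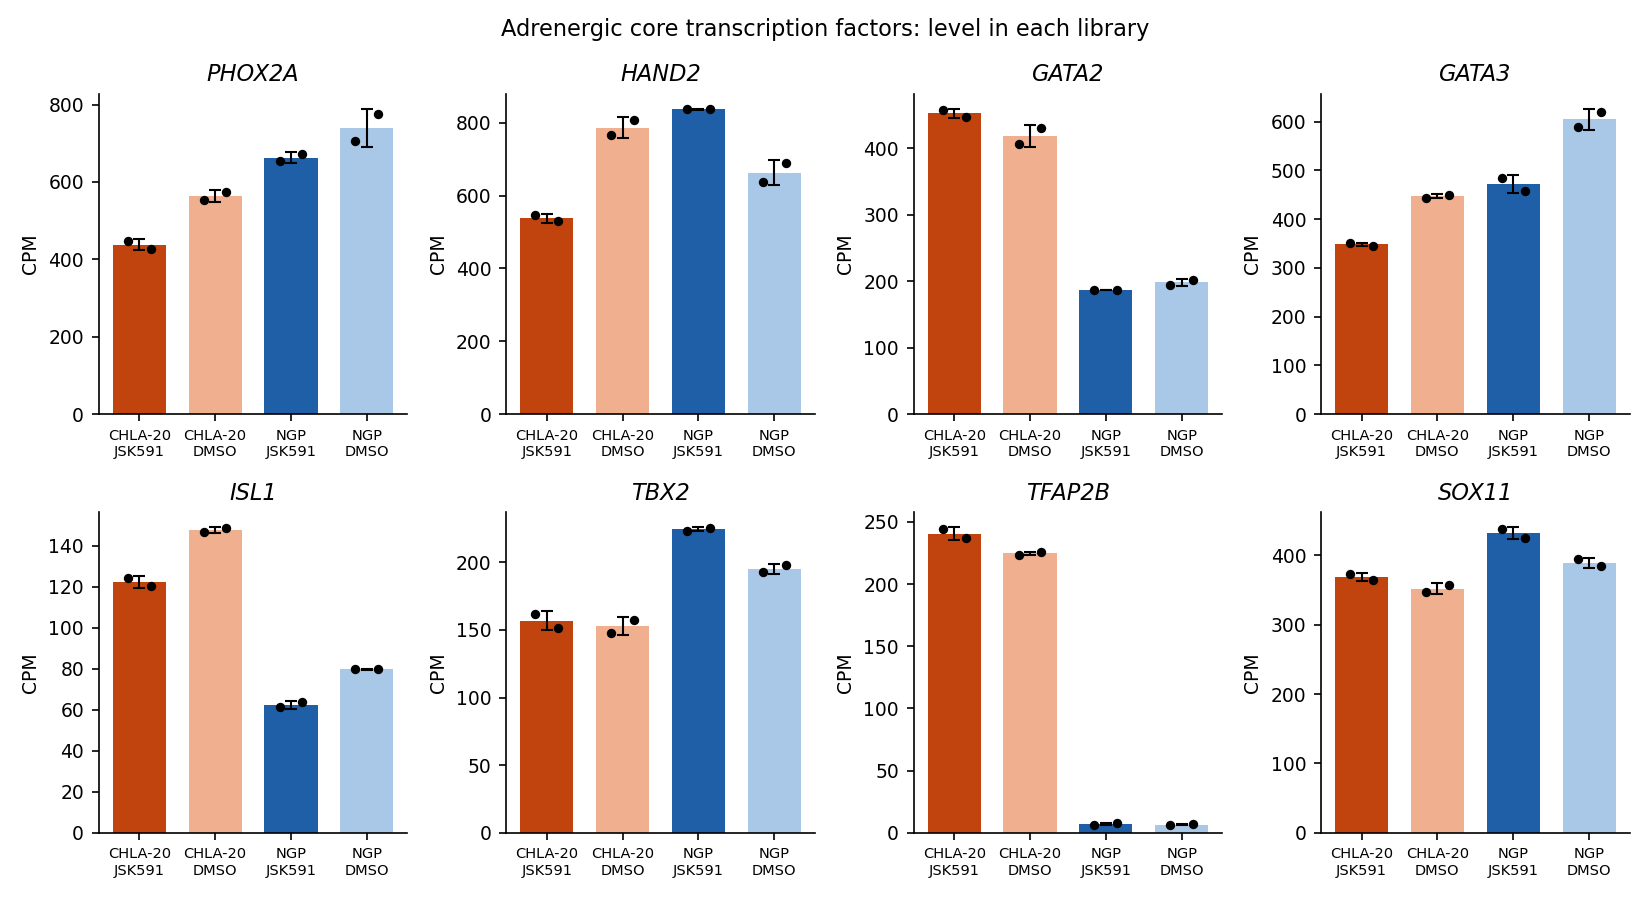
Level of each factor in CPM (axes start at 0), with bars for the mean of 2 libraries, error bars for the SD and points for the libraries. HAND2 is lower with JSK591 than with DMSO in CHLA-20 (means 537 and 786 CPM) and higher with JSK591 than with DMSO in NGP (837 and 663 CPM).

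The other line, NGP, was put to the same comparison. PHOX2A, GATA3 and ISL1 fell, HAND2, TBX2 and SOX11 rose, and GATA2 and TFAP2B did not pass. The 3 that fell stand beside 19.4% of all genes that were lower and the 3 that rose beside 16.8% higher, with 36.2% called in both directions together. The median log2 change of the 8 was 0.02, against 0.00 over all genes. JSK591 and DMSO libraries did not overlap for 7 of the 8, against 65.3% of all genes.

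HAND2 had 836 and 838 CPM in NGP JSK591, against 638 and 688 CPM in NGP DMSO. Both JSK591 libraries were above both DMSO libraries, and the log2 change was 0.34 ± 0.04 (edgeR adjusted p = 3.67e-11). GATA3 had 485 and 459 CPM with JSK591, against 590 and 620 CPM with DMSO, a log2 change of -0.36 ± 0.04 (edgeR adjusted p = 2.90e-12). ISL1 had 61.2 and 63.9 CPM with JSK591, against 79.7 and 79.6 CPM with DMSO, a change of -0.35 ± 0.04 (edgeR adjusted p = 2.95e-09). Neither GATA3 nor ISL1 had overlapping groups.

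PHOX2A had 653 and 673 CPM with JSK591, against 705 and 775 CPM with DMSO. Its log2 change of -0.16 ± 0.04 (edgeR adjusted p = 5.59e-04) was lost without NGP DMSO replicate 2 (-0.10) and reached -0.25 without NGP DMSO replicate 1 and with the GC trend removed. The spread between its DMSO libraries, 49.1 CPM (SD), was the largest of any factor in any group.

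TBX2 had 223 and 226 CPM with JSK591, against 193 and 198 CPM with DMSO, a log2 change of 0.20 ± 0.04 (edgeR adjusted p = 2.41e-05). SOX11 had 438 and 425 CPM with JSK591, against 394 and 384 CPM with DMSO, a change of 0.15 ± 0.04 (edgeR adjusted p = 6.24e-04) that was lost without NGP JSK591 replicate 1 (0.11). Both were higher in each JSK591 library than in each DMSO library.

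GATA2 had 188 and 188 CPM with JSK591, against 195 and 202 CPM with DMSO. Its groups did not overlap, and its log2 change of -0.08 ± 0.04 did not pass (edgeR adjusted p = 0.0935), although it did under 5 of 17 other settings with values of -0.14 to -0.10. TFAP2B was low in this line, with 6.61 and 7.64 CPM with JSK591 against 6.44 and 6.65 CPM with DMSO. Its groups overlapped and its change was 0.12 ± 0.10 (edgeR adjusted p = 0.357).

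**Figure D3:**
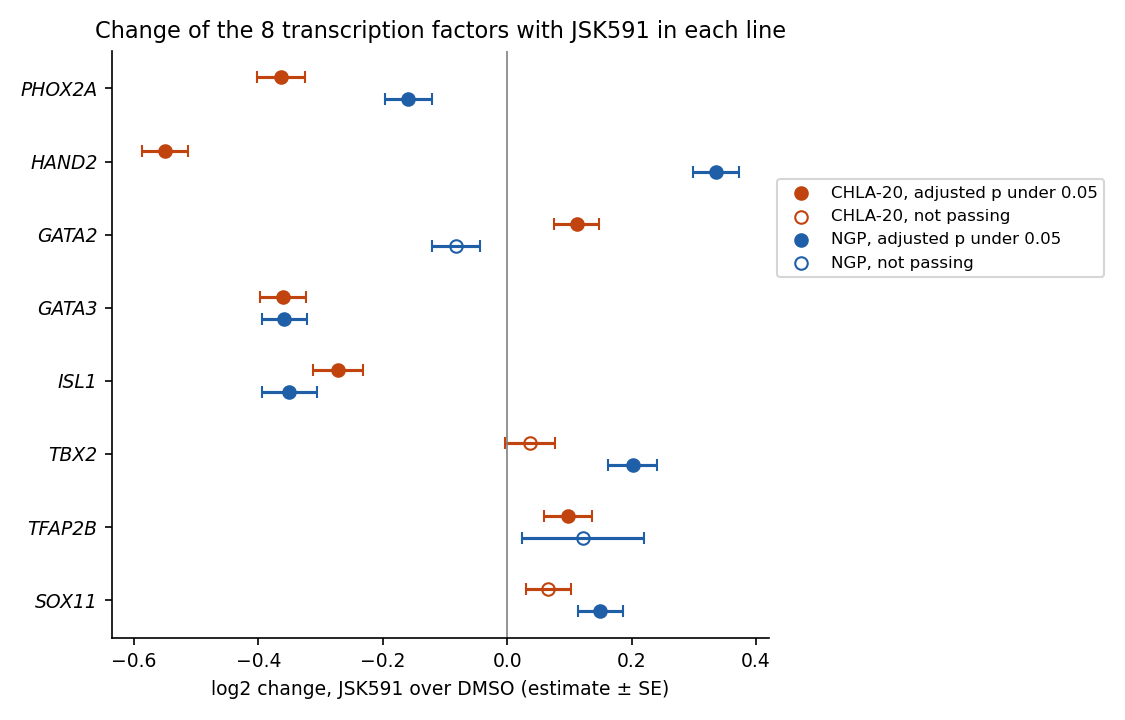
Log2 change with JSK591 over DMSO in CHLA-20 and in NGP for each factor, as the edgeR estimate with its SE, filled where the adjusted p was under 0.05. HAND2 lies at -0.55 in CHLA-20 and 0.34 in NGP, while GATA3 lies at -0.36 in both lines.

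The difference of the 2 effects, NGP minus CHLA-20, was tested in the same model. It was above 0 for HAND2, PHOX2A and TBX2 and below 0 for GATA2. These 3 of 8 stand beside 15.2% of all genes with a difference above 0 and the 1 of 8 beside 12.5% below 0, with 27.7% called in all. HAND2 had the largest difference of the 8, with 0.34 in NGP and -0.55 in CHLA-20, a difference of 0.89 ± 0.05 (edgeR adjusted p = 5.64e-21). It kept its direction and its call under every one of the 16 other settings.

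GATA2 differed by -0.19 ± 0.05 (edgeR adjusted p = 0.00376), from -0.08 in NGP and 0.11 in CHLA-20, and by -0.39 with the GC trend removed. PHOX2A differed by 0.20 ± 0.05 (edgeR adjusted p = 0.00251), since it fell less in NGP than in CHLA-20. With the GC trend removed this difference turned to -0.12 and was called in that direction, and it lost its call without CHLA-20 DMSO replicate 2 (0.13), CHLA-20 JSK591 replicate 2 (0.17) or NGP DMSO replicate 1 (0.08). TBX2 differed by 0.17 ± 0.06 (edgeR adjusted p = 0.0204), a call that was lost under 10 of 16 other settings and turned to -0.06 with the GC trend removed. Without CHLA-20 DMSO replicate 2 it was 0.07 and without NGP DMSO replicate 1 it was 0.09.

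GATA3 gave 0.00 ± 0.05 (edgeR adjusted p = 0.998), ISL1 -0.08 ± 0.06 (0.373), TFAP2B 0.02 ± 0.11 (0.906) and SOX11 0.08 ± 0.05 (0.244). None of these passed, and the SE of TFAP2B was the widest of the 8.

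Without treatment, the question is how far the lines differ in the same factors. All 8 were called between NGP DMSO and CHLA-20 DMSO, 4 higher and 4 lower in NGP, in a comparison where 75.5% of all genes were called, 36.6% of them higher and 38.9% lower, each as a share of all genes tested. The groups did not overlap for any of the 8, nor for 86.6% of all genes. TFAP2B had 6.44 and 6.65 CPM in NGP DMSO, against 224 and 226 CPM in CHLA-20 DMSO. That is 34.3-fold lower in NGP, a log2 difference of -5.10 ± 0.06 (edgeR adjusted p = 7.77e-61), larger in size than that of 94.6% of all genes.

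GATA2 was lower in NGP by a log2 difference of -1.08 ± 0.04 (-0.70 with the GC trend removed) and ISL1 by -0.89 ± 0.04. GATA3 was higher by 0.44 ± 0.04, PHOX2A by 0.39 ± 0.04 (0.98 with the GC trend removed), TBX2 by 0.35 ± 0.04 (0.79) and SOX11 by 0.15 ± 0.04. HAND2 gave -0.25 ± 0.04, but it turned to 0.08 with the GC trend removed and was -0.14 without NGP DMSO replicate 1. The median size of a log2 difference between the lines was 0.671 over all genes, so 3 of the 8, TFAP2B, GATA2 and ISL1, lay above it and 5 below.

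Ordered by group, GATA3 and PHOX2A followed the same order, highest in NGP DMSO, then NGP JSK591, CHLA-20 DMSO and CHLA-20 JSK591, with no overlap between neighbouring groups. TBX2 and SOX11 were both highest in NGP JSK591, then NGP DMSO, CHLA-20 JSK591 and CHLA-20 DMSO, where the last 2 groups of TBX2 overlapped. GATA2 and TFAP2B were highest in CHLA-20 JSK591 and next in CHLA-20 DMSO, and for TFAP2B the NGP groups overlapped. ISL1 was highest in CHLA-20 DMSO and lowest in NGP JSK591. HAND2 alone of the 8 was highest in NGP JSK591 and lowest in CHLA-20 JSK591. Measured over the 8 libraries by the root-mean-square difference of log2 CPM profiles centred on their mean, the closest pair was PHOX2A and GATA3 (0.0854), followed by TBX2 and SOX11 (0.129). Every pair with TFAP2B was at 1.91 or more.

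By the same measure, the nearest of 10443 other protein-coding genes to HAND2 were GPR153 (0.0573) and VAT1L (0.0663). GPR153 averaged 19.1 CPM in CHLA-20 JSK591, 27.9 in CHLA-20 DMSO, 32.1 in NGP JSK591 and 25.6 in NGP DMSO. Nearest to GATA3 were SLC1A5, a glutamine transporter (0.0408), and IGHMBP2 (0.0429), and to PHOX2A the axonal kinesin KIF1A (0.0416) and VASP (0.0461), a regulator of actin filaments. ISL1 was nearest to SND1 (0.0337) and ZRANB1 (0.0353), and GATA2 to ECHS1 (0.0471) and CD63 (0.0493). For TBX2 they were PAPOLA (0.0292) and SLC38A7 (0.0316), and for SOX11 CLASP1 (0.0197) and ZMYND19 (0.0252). TFAP2B had NBPF9 (0.0633) and NUDT19 (0.0911) nearest to it. NUDT19 averaged at most 0.030 CPM in the NGP groups, and its log2 difference between the untreated lines was -8.97, against -5.10 for TFAP2B. The pseudocount of 0.5 CPM in the profiles narrows that gap.

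Genes on the opposite strand beside the factors were also measured. HAND2-AS1 (ENSG00000237125.9, chromosome 4, 173527270 to 173659696, plus strand), an antisense RNA gene that overlaps HAND2, had 262 and 257 CPM in CHLA-20 JSK591, against 325 and 320 CPM in CHLA-20 DMSO. In NGP it had 366 and 356 CPM with JSK591, against 283 and 271 CPM with DMSO. It fell in CHLA-20 by 0.31 ± 0.04 on the log2 scale (edgeR adjusted p = 1.58e-10) and rose in NGP by 0.38 ± 0.04 (edgeR adjusted p = 4.43e-13), as HAND2 did, and the effects differed by 0.70 ± 0.05 (edgeR adjusted p = 1.04e-16). Because the strand setting is not given, it is uncertain how the counting treated reads from the shared part of the 2 genes.

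AC010478.1 (ENSG00000259663.2, chromosome 5, 51372736 to 51383332, minus strand) starts 59 bases before ISL1 on the other strand and does not overlap it, and its start lies within the ISL1 sequence printed above. It had 51.6 and 51.6 CPM in CHLA-20 JSK591, against 42.3 and 44.9 CPM in CHLA-20 DMSO. The NGP libraries had 26.6 and 26.3 CPM with JSK591, against 11.6 and 11.4 CPM with DMSO. It rose in both lines, by 0.24 ± 0.05 in CHLA-20 (edgeR adjusted p = 1.27e-04) and by 1.20 ± 0.07 in NGP (edgeR adjusted p = 8.54e-22), while ISL1 fell in both. The 2 effects differed by 0.96 ± 0.09 (edgeR adjusted p = 2.98e-13). Between the untreated lines it was lower in NGP by a log2 difference of -1.92 ± 0.07.

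TBX2-AS1, which overlaps TBX2, had 25.7 and 26.6 CPM in CHLA-20 JSK591, against 28.9 and 33.5 CPM in CHLA-20 DMSO, and 22.8 and 25.5 CPM in NGP JSK591, against 19.0 and 20.5 CPM in NGP DMSO. Its change was -0.25 ± 0.07 in CHLA-20 (edgeR adjusted p = 0.00141), turning to 0.00 with the GC trend removed and uncalled at -0.12 without CHLA-20 DMSO replicate 2. In NGP it rose by 0.29 ± 0.07 (edgeR adjusted p = 7.23e-04), a call lost without NGP DMSO replicate 1 (0.21) or NGP JSK591 replicate 2 (0.22), and the rise was 0.18 with the GC trend removed. The difference of 0.55 ± 0.10 (edgeR adjusted p = 1.04e-05) was 0.18 and uncalled with the GC trend removed.

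GATA2-AS1 averaged 9.96 and 10.9 CPM in CHLA-20 JSK591 and DMSO and 19.8 and 16.7 CPM in NGP JSK591 and DMSO. GATA3-AS1 had 18.8 and 17.4 CPM in CHLA-20 JSK591, against 19.4 and 20.5 CPM in CHLA-20 DMSO, and averaged 33.6 and 29.8 CPM in NGP JSK591 and DMSO. Both passed in NGP, at 0.24 ± 0.08 and 0.17 ± 0.06, but not in CHLA-20. Their NGP calls were lost with DESeq2, and without NGP DMSO replicate 1 the values were 0.13 for GATA2-AS1 and 0.09 for GATA3-AS1. They were also lost without NGP JSK591 replicate 2 (0.20 for GATA2-AS1 and 0.14 for GATA3-AS1), and for GATA3-AS1 without NGP JSK591 replicate 1 (0.18), with the GC trend removed (0.13) and when genes of low count were kept (0.17). GATA3-AS1 was higher in NGP JSK591 while GATA3 was lower. INPPL1, a lipid phosphatase gene whose end overlaps the end of PHOX2A, fell in CHLA-20 by 0.40 ± 0.05, or 0.23 with the GC trend removed, and gave 0.11 ± 0.05 in NGP without passing (0.13 and called under total count scaling). AC108025.2, an RNA gene on the same strand that overlaps SOX11, had 1.99 and 1.72 CPM in CHLA-20 JSK591, against 0.888 and 1.36 CPM in CHLA-20 DMSO, and 2.22 and 2.50 CPM in NGP JSK591, against 1.04 and 0.599 CPM in NGP DMSO. It rose by 1.52 ± 0.25 in NGP (edgeR adjusted p = 1.74e-06) and by 0.72 ± 0.25 in CHLA-20 (edgeR adjusted p = 0.0159). The CHLA-20 call was lost with DESeq2, with no filter on low counts, and without CHLA-20 JSK591 replicate 1 (0.62) or CHLA-20 DMSO replicate 1 (0.45), and the value was 1.09 without CHLA-20 DMSO replicate 2. The difference between the lines was 0.79 ± 0.37 and did not pass, but passed without CHLA-20 DMSO replicate 1 (1.07) or NGP DMSO replicate 1 (1.19). How the counting split reads between AC108025.2 and SOX11 is uncertain. AC108025.1, which starts near SOX11, was at most 0.624 CPM in any library and was called in neither line, except in CHLA-20 without CHLA-20 DMSO replicate 1 (1.89). LINC01248 near SOX11, AC005746.2 over TBX2 and AL390294.1 over GATA3 were at most 0.323 CPM and did not pass the filter. TFAP2B had no gene overlapping it or starting within 5 kb of its start.

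**Figure D4:**
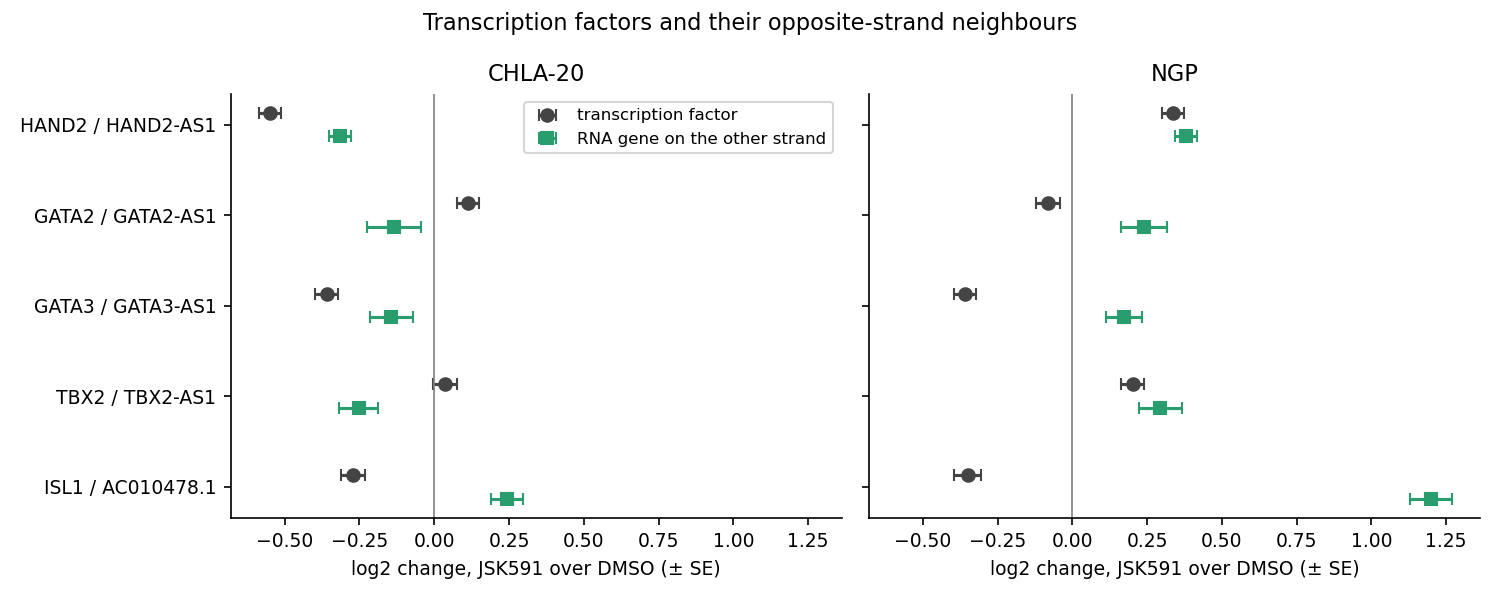
Log2 change with JSK591 over DMSO (edgeR estimate with SE) of 5 factors and of the RNA gene on the opposite strand beside each, in CHLA-20 and in NGP. HAND2 and HAND2-AS1 lie on the same side of 0 in each line, and ISL1 lies below 0 and AC010478.1 above 0 in both.

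Within 1 Mb of the HAND2 start 19 other genes were tested, HAND2-AS1 among them. With JSK591, 0 were higher and 6 lower in CHLA-20 (median log2 change -0.30), and 5 were higher and 3 lower in NGP (median -0.08). The difference of the effects was above 0 for 9 of the 19 and below 0 for 0, with a median of 0.44. Over all genes tested, 16.9% were higher and 22.4% lower in CHLA-20 (median -0.02), and 16.8% and 19.4% in NGP (median 0.00). The difference was above 0 for 15.2% of all genes and below 0 for 12.5% (median 0.03). Around GATA2 the counts were 6 higher and 10 lower of 29 in CHLA-20 and 6 and 7 in NGP, and around PHOX2A 5 and 9 of 30 in CHLA-20 and 4 and 2 in NGP. Around TBX2 they were 3 and 4 of 15 in CHLA-20 and 2 and 4 in NGP. Differences above and below 0 numbered 7 and 5 around GATA2, 7 and 4 around PHOX2A and 2 and 4 around TBX2. The windows of GATA3, ISL1, SOX11 and TFAP2B held 6 genes or fewer.

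Of 16 other transcription factors of the adrenergic state, 2 rose and 8 fell in CHLA-20 (median log2 change -0.18) and 4 rose and 9 fell in NGP (median -0.20). Among all genes tested, 16.9% rose and 22.4% fell in CHLA-20 (median -0.02). The NGP shares were 16.8% and 19.4% (median 0.00). PBX3, a homeodomain cofactor, fell in both lines, by 0.55 ± 0.06 in CHLA-20 and 0.59 ± 0.06 in NGP. SIX3 fell in CHLA-20 by 0.48 ± 0.05 and ZNF536 by 0.31 ± 0.06. HEY1, a Notch-responsive repressor, fell there by 0.32 ± 0.09, a call lost with DESeq2 and without CHLA-20 JSK591 replicate 2 (-0.25). In NGP the related zinc finger genes INSM1 and INSM2 went opposite ways, with a rise of 0.47 ± 0.04 and a fall by 0.61 ± 0.04.

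Of 15 paralogs of the factors 13 were tested, and 1 rose and 4 fell in CHLA-20 while 0 rose and 5 fell in NGP. These counts stand beside 16.9% of all genes that rose and 22.4% that fell in CHLA-20, and 16.8% and 19.4% in NGP. HAND1, the paralog of HAND2, averaged 221 ± 5.11 CPM in NGP JSK591, against 302 ± 21.0 CPM in NGP DMSO (SD, n = 2). It fell there by 0.45 ± 0.04, where HAND2 rose. In CHLA-20 HAND1 rose by 0.14 ± 0.05, where HAND2 fell, but that call was lost without CHLA-20 DMSO replicate 1 (0.12), without CHLA-20 JSK591 replicate 1 (0.09) and with no filter on low counts, and it was 0.26 with the GC trend removed. The difference of its effects was -0.60 ± 0.07 and passed. TBX3, the paralog of TBX2, averaged 95.2 and 186 CPM in NGP JSK591 and DMSO and 386 and 462 CPM in CHLA-20 JSK591 and DMSO. It fell by 0.97 ± 0.04 in NGP, where TBX2 rose, and by 0.26 ± 0.04 in CHLA-20. SOX4, a group C factor like SOX11, fell by 0.35 ± 0.04 in NGP and by 0.18 ± 0.04 in CHLA-20, the second call lost without CHLA-20 JSK591 replicate 2 (-0.12). Between the untreated lines 7 of the 13 were higher in NGP and 6 lower, beside 36.6% and 38.9% of all genes. The largest differences were those of TBX5, GATA6, ISL2 and GATA4, higher in NGP by 9.34, 6.77, 6.14 and 5.73 on the log2 scale. In CHLA-20 DMSO, TBX5 had 3 counts over both libraries, GATA6 14 and ISL2 18, so the sizes of these differences are uncertain. GATA4 averaged 122 CPM in NGP DMSO and 2.29 CPM in CHLA-20 DMSO.

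Of 15 partner proteins of the factors, 2 rose and 8 fell in CHLA-20 (median -0.20) and 4 rose and 8 fell in NGP (median -0.14). For all genes the shares that rose and fell were 16.9% and 22.4% in CHLA-20 and 16.8% and 19.4% in NGP. LDB2, a scaffold that joins LIM homeodomain proteins such as ISL1, fell by 0.77 ± 0.08 in CHLA-20 and by 0.61 ± 0.10 in NGP. LMO4, a LIM-only protein that binds the same scaffold, fell by 0.57 ± 0.08 in CHLA-20 and gave -0.04 ± 0.04 in NGP, and the difference of 0.52 ± 0.09 passed. ZFPM1, a cofactor of GATA proteins, fell by 0.31 ± 0.06 in CHLA-20, or -0.05 and uncalled with the GC trend removed. CITED2, a coactivator of AP-2 proteins, fell in NGP by 0.47 ± 0.05 and TCF12, a dimer partner of HAND2, by 0.41 ± 0.04.

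Noradrenergic genes, whose products make, store and take up noradrenaline or mark such neurons, bear on the adrenergic name of the factors. Of 16 listed, 14 were tested, and between the untreated lines 13 were lower in NGP and 1 was higher. In that comparison 38.9% of all genes were lower and 36.6% higher. TH, the rate-limiting enzyme of noradrenaline synthesis, averaged 1075 and 1381 CPM in CHLA-20 JSK591 and DMSO, but 0.54 and 0.76 CPM in NGP JSK591 and DMSO. DBH, the enzyme of the last step, averaged 66.4 and 46.8 CPM in CHLA-20 JSK591 and DMSO, but 0.35 and 0.28 CPM in NGP JSK591 and DMSO. Both of these enzyme genes were close to 0 in NGP, but not every gene of the list was. The 1 that was higher in NGP, the transporter gene SLC6A2, averaged 35.8 CPM in NGP DMSO and 2.43 CPM in CHLA-20 DMSO. Of the lower ones, DDC averaged 28.9 CPM in NGP DMSO and 98.5 CPM in CHLA-20 DMSO, and CHGB 123 and 165 CPM. Of the factors, 7 of 8 lay at about the 89.0th percentile or above in NGP, among the protein-coding genes that passed the filter. TFAP2B lay at 28.9 with JSK591 and 28.6 with DMSO. Of 16 tested transcription factors of the mesenchymal state, 7 were higher and 6 lower in NGP DMSO than in CHLA-20 DMSO. The shares of all genes were 36.6% higher and 38.9% lower. PRRX1 averaged 90.6 CPM in NGP DMSO and 0.06 CPM in CHLA-20 DMSO, while TWIST1 averaged 124 CPM in NGP DMSO and 715 CPM in CHLA-20 DMSO. The summed level of all 20 listed was 323 and 326 CPM in NGP DMSO, against 798 and 820 CPM in CHLA-20 DMSO. Most of the CHLA-20 sum was TWIST1, so the sums do not show the direction of the list as a whole.

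In CHLA-20, 8 of the 14 noradrenergic genes rose with JSK591 and 4 fell (median log2 change 0.23), and in NGP 4 rose and 4 fell (median 0.12). The shares of all genes that rose and fell were 16.9% and 22.4% in CHLA-20 and 16.8% and 19.4% in NGP. TH fell in CHLA-20 by 0.36 ± 0.04, or 0.13 with the GC trend removed, while DBH rose by 0.51 ± 0.05. SLC6A2, the noradrenaline transporter, rose there by 2.02 ± 0.12 and fell in NGP by 0.26 ± 0.06, and RET, a receptor tyrosine kinase, rose by 1.04 ± 0.04 in CHLA-20 and 0.66 ± 0.09 in NGP. STMN2, a neuronal microtubule regulator, fell in NGP by 0.89 ± 0.04 and in CHLA-20 by 0.47 ± 0.03. ALK, a receptor kinase gene often mutated in neuroblastoma, rose by 0.62 ± 0.05 in NGP and CHGB, of the secretory granules, by 0.38 ± 0.04. The vesicular transporters SLC18A1 and SLC18A2 gave 0.69 ± 0.17 and -0.91 ± 0.24 in CHLA-20, calls that DESeq2 did not make.

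**Figure D5:**
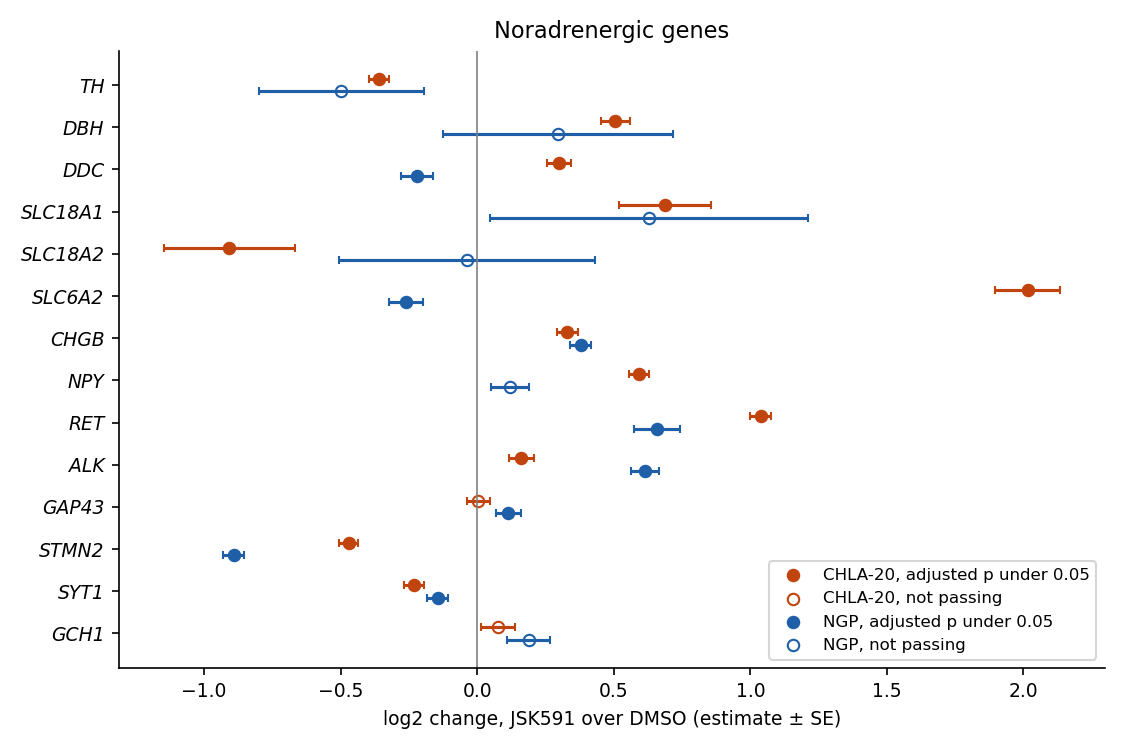
Log2 change with JSK591 over DMSO (edgeR estimate with SE) of the 14 tested noradrenergic genes in CHLA-20 and in NGP, filled where the adjusted p was under 0.05. In CHLA-20 SLC6A2 lies at 2.02 and TH at -0.36, and the wide bars of TH and DBH in NGP go with levels under 1 CPM.

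Of 20 transcription factors of the mesenchymal state 16 were tested, with 1 higher and 3 lower in CHLA-20 (median -0.12) and 2 higher and 0 lower in NGP (median -0.05). Beside these and the markers below, 16.9% of all genes were higher and 22.4% lower in CHLA-20, and 16.8% and 19.4% in NGP. TWIST1, a mesenchymal helix-loop-helix factor, fell in CHLA-20 by 0.61 ± 0.04 and FOSL2, of the AP-1 family, rose in NGP by 0.69 ± 0.08. Markers of other cell types moved with line and with treatment. The summed level of 9 Schwann cell and fibroblast markers was 418 and 423 CPM in CHLA-20 JSK591, against 490 and 490 CPM in CHLA-20 DMSO. It was 692 and 654 CPM in NGP JSK591, against 579 and 599 CPM in NGP DMSO. Of the 8 tested, 1 rose and 3 fell in CHLA-20 and 1 rose and 2 fell in NGP. Most of the NGP sum was COL1A1, a collagen chain, with 637 CPM in NGP JSK591 and 547 CPM in NGP DMSO. The sums therefore do not show the direction of the list between the lines. Of the 8 tested, 2 were higher and 6 lower in NGP DMSO than in CHLA-20 DMSO, beside 36.6% and 38.9% of all genes. Among the lower ones, DCN averaged 0.12 CPM in NGP DMSO and 134 CPM in CHLA-20 DMSO. COL1A1 rose in NGP by 0.22 on the log2 scale and fell in CHLA-20 by 0.57, and COL1A2 rose in CHLA-20 by 0.62. PDGFRB and LUM fell in both lines, PDGFRB by 0.45 in CHLA-20 and 0.19 in NGP, and LUM by 0.18 in CHLA-20 and 0.50 in NGP. Of these calls, LUM in CHLA-20 was lost without CHLA-20 JSK591 replicate 1 (-0.14), LUM in NGP without NGP DMSO replicate 2 (-0.28) and PDGFRB in NGP without NGP JSK591 replicate 2 (-0.17). The part of these markers in the results on the factors was not tested. The Schwann cell gene SOX10 averaged at most 0.15 CPM in any group. Blood markers summed to 0.0588 to 0.404 CPM and 6 epithelial markers to 2.08 to 5.38 CPM per library. Of 6 blood markers 0 passed the filter, and of 4 tested epithelial markers CDH1 alone was called with JSK591, lower in NGP. That call rests on few reads, with 0 counts over both NGP JSK591 libraries and 13 over both NGP DMSO libraries.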

How the data were processed

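The authors deposited raw gene counts for each library, made with STAR and HTSeq on GRCh38 (hg38), per the submitters' processing notes, which also name DESeq2. Versions, annotation and strand setting are not given in the sources used here. All 58721 identifiers were found in GENCODE 29, used for symbols, coordinates and exon lengths. Reads that HTSeq set aside were left out. Those outside genes were 5.15% to 6.86%, ambiguous ones 6.77% to 7.18% and those without a unique alignment 19.2% to 22.0%. Each is a share of the reads assigned to genes and all reads set aside together. The limit a count of 0 allows, 3 counts, is at most 0.0904 CPM and covers counting error only.

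Counts were fitted with edgeR 4.0.16 in R 4.3.3 (filterByExpr over the 4 groups, TMM, 1 quasi-likelihood model of all 8 libraries with no block). There were 4 residual degrees of freedom and a biological coefficient of variation of 2.76%. The SE was derived from the F value. Files were prepared with Python 3.11.15. The code was tested on simulated data. The members and lists were chosen with earlier results of these data known. Named beside the 8 factors were TH, DBH, up to 4 called genes of each list per comparison with the largest changes, the 2 nearest profiles per factor (mean of at least 5 CPM, pseudocount 0.5), and genes overlapping a factor or starting within 5 kb of its start. The values of 1 further gene of the rule are not reported here. Alternatives were other scalings, filters, DESeq2 1.42.0, a replicate block, only the libraries compared, removal of the trend in GC content, and leaving out each library.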

Additional observations from a re-analysis of the deposited data

Results flagged for a closer look

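For 10 genes the effects of JSK591 differed between the lines by the test of the difference itself, given here as log2 change in NGP minus that in CHLA-20. Among the factors HAND2 differed by 0.89 (0.34 in NGP and -0.55 in CHLA-20, edgeR adjusted p = 5.64e-21), PHOX2A by 0.20 (-0.16 and -0.36, edgeR adjusted p = 0.00251), TBX2 by 0.17 (0.20 and 0.04, edgeR adjusted p = 0.0204) and GATA2 by -0.19 (-0.08 and 0.11, edgeR adjusted p = 0.00376). Among genes beside them AC010478.1 differed by 0.96 (1.20 in NGP and 0.24 in CHLA-20, edgeR adjusted p = 2.98e-13), HAND2-AS1 by 0.70 (0.38 and -0.31, edgeR adjusted p = 1.04e-16), TBX2-AS1 by 0.55 (0.29 and -0.25, edgeR adjusted p = 1.04e-05) and INPPL1 by 0.51 (0.11 and -0.40, edgeR adjusted p = 1.87e-08). GATA2-AS1 differed by 0.37 (0.24 in NGP and -0.13 in CHLA-20, edgeR adjusted p = 0.0128) and GATA3-AS1 by 0.32 (0.17 and -0.14, edgeR adjusted p = 0.00756). The difference of GATA2-AS1 lost its call without CHLA-20 JSK591 replicate 2 (0.36), NGP JSK591 replicate 2 (0.33), CHLA-20 DMSO replicate 2 (0.31) or NGP DMSO replicate 1 (0.24), and that of GATA3-AS1 without CHLA-20 JSK591 replicate 2 (0.26), CHLA-20 DMSO replicate 2 (0.23) or NGP DMSO replicate 1 (0.20). Both were also lost with DESeq2 and with no filter on low counts. With the GC trend removed the difference was 0.22 for GATA2-AS1, 0.13 for GATA3-AS1 and 0.18 for TBX2-AS1, all 3 uncalled, and 0.28 for INPPL1, still called. The lines also differ in medium, and line and medium cannot be told apart.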

How the results depend on the processing

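The falls of HAND2, GATA3, ISL1 and PHOX2A in CHLA-20, those of GATA3 and ISL1 in NGP and the rises of HAND2 and TBX2 in NGP kept direction and call under all 17 alternatives. The CHLA-20 count of factors higher was 2, against 1 with no filter on low counts, 1 with DESeq2, 4 with the GC trend removed and 0 to 3 without single libraries. The count with a difference above 0 was 3, against 1 with the GC trend removed and 1 to 3 without single libraries, and the count below 0 was 1, against 2 with the GC trend removed. The count above 0 was also lower than 3 with RLE size factors, no filter on low counts and DESeq2, where the call of TBX2 was lost. With the replicate number as a block the counts of factors higher and lower stayed at 2 and 4 in CHLA-20, 3 and 3 in NGP, 3 and 1 for the difference and 4 and 4 between the lines. Deviations of libraries with the same replicate number had correlations of -0.0686 to 0.0388 between groups. No label says whether the numbers pair the samples, and these values cannot exclude it. Removing the GC trend turned the difference for PHOX2A (-0.116), TBX2 (-0.0622) and ZFPM1 (-0.303), the CHLA-20 change of TBX2-AS1 (0.00177) and TCF3 (0.0127), and the line difference of HAND2 (0.0840) and SOX12 (0.167). The cause was not tested. With 2 libraries a group, calls were gained or lost with single libraries, for differences of about 0.1 on the log2 scale and for larger ones. Among the larger, AC108025.2 in CHLA-20 went from 0.72 to 0.45 without CHLA-20 DMSO replicate 1. LUM in NGP went from -0.50 to -0.28 without NGP DMSO replicate 2. GATA2-AS1 and GATA3-AS1 lost the call of their difference under 7 and 6 of 16 alternatives.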
